A study of Nannochloropsis oceanica with 6 samples.

Results

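Cryptochromes and DNA photolyases form 1 protein family of flavin-binding, light-absorbing proteins. Photolyases use the energy of blue or near-ultraviolet light, caught by a bound FAD, to split pyrimidine dimers that ultraviolet light has formed in DNA. Cryptochromes share that fold, and many of them act as blue light receptors in place of repair. The cryptochrome DASH branch lies between both uses: in plants its members are found in chloroplasts and mitochondria and repair dimers in single-stranded DNA. In diatoms, which are relatives of the alga studied here, a photolyase/cryptochrome protein is known both to repair DNA and to take part in blue light signalling.

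The members described here are 3 gene models of the deposited table, chosen by their protein identifiers: a cryptochrome DASH (protein ‘622582’), a photolyase/cryptochrome (protein ‘571816’) and a photolyase (protein ‘529956’). The table lists 10641 models in all. A word search of the descriptions for photolyase or cryptochrome found 4 models, these 3 and a type II photolyase (660086) that is not a member and is described beside them. All 4 carried the same orthologous group description, deoxyribodipyrimidine photolyase/cryptochrome, and the same domain, the N-terminal domain of DNA photolyase. The members were chosen by annotation, and their light responses in these libraries were already known when they were chosen.

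Messenger RNA had been sequenced from Nannochloropsis oceanica strain CCMP1779, a unicellular marine alga of the stramenopiles, in 3 groups of 2 libraries. All cultures grew at 22 °C in cycles of 12 h light at 30 μmol s-1 m-2 and 12 h dark, were moved to darkness at zeitgeber time 12 h, and stayed dark for 36 h. The blue and the red group then received a pulse of 5 min at 20 μmol s-1 m-2, the dark group received none, and every culture was left in darkness for another 15 min until harvest. The labels name no mutation or transgene, so the groups are 1 strain at 1 time after 1 dose of each colour. The labels do not say whether the pair of libraries in a group stands for different cultures. The p-values therefore reflect library-to-library spread, and that spread could be technical. In bulk RNA, less RNA per cell and fewer cells that use a gene cannot be told apart. As a check of the organism, 26 of 26 light harvesting or chlorophyll-binding models, and the lipid droplet surface protein for which this genus is known, were above 0 in all 6 libraries. Of 10635 models with values, 9087 had a mean of at least 1 FPKM, so being above 0 is a weak check.

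Levels are in FPKM, fragments per transcript length and library size, as deposited. Counts were not used. The relative depth was taken from the most common ratio of low FPKM values between a library and dark replicate 1, read as equal fragments. Of 1121 low models, 59 to 83 lay at that ratio in a library. With dark replicate 1 set to 1, the number of fragments behind 1 FPKM was 1.09 in dark replicate 2, 1.66 and 1.20 in blue replicates 1 and 2, and 1.69 and 1.33 in red replicates 1 and 2. Changes are log2 differences of FPKM + 1 from 1 limma fit over the 9087 models whose mean reached 1 FPKM, and a change was called at a Benjamini-Hochberg adjusted p under 0.05. In blue against dark that fit called 76.1% of models, 39.9% higher and 36.2% lower. In red against dark 63.3% were called, 33.7% higher and 29.5% lower. In blue against red 50.7% were called, 27.0% higher and 23.7% lower. Calls were thus common, and the balance between higher and lower moved with the scaling. In blue against dark 3626 were higher and 3292 lower, against 4551 and 2475 with TPM and 2642 and 4301 with median centring. In red against dark 3066 were higher and 2684 lower, against 4978 and 1463 with TPM and 2256 and 3499 with median centring. Those scalings moved the median log2 change of all models from 0.05 to 0.27 and −0.22 for blue against dark, and from 0.04 to 0.36 and −0.12 for red against dark. The comparisons of blue and of red with dark share the dark libraries. An exact permutation test of 2 libraries against 2 cannot give a two-sided p below 0.333, so none is given for single genes.

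All 3 members were higher after the blue pulse than in darkness, and they differed widely in how much. Cryptochrome DASH rose 144-fold, from below 1 FPKM on average to the upper part of the transcriptome, the photolyase/cryptochrome rose 3.99-fold, and the photolyase rose 2.43-fold. After the red pulse the photolyase/cryptochrome and the photolyase also rose, by 1.82-fold and 1.67-fold, while cryptochrome DASH did not pass the test. The type II photolyase stayed near 1 FPKM in every group. The plot of levels by library shows these 4 models on a common scale.

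**Figure D1:**
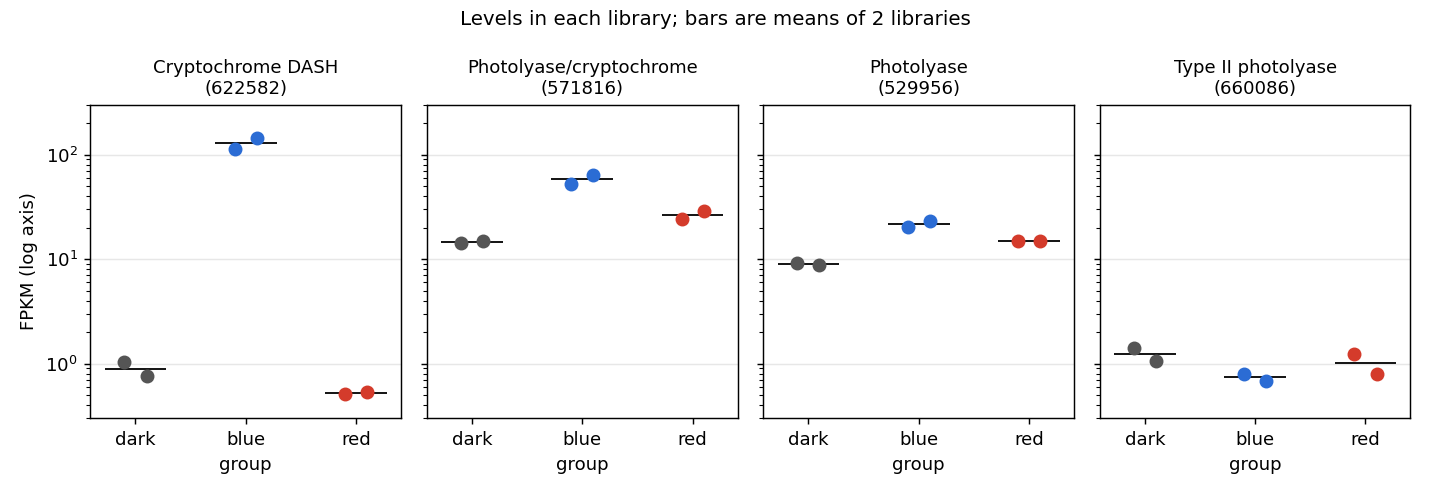
FPKM on a log axis in each library of the dark, blue and red groups for the 3 members and the type II photolyase; points are libraries and bars are means of 2 libraries. Cryptochrome DASH lies between 0.515 and 1.03 FPKM in the dark and red libraries and at 113 and 145 FPKM in the blue ones, while the type II photolyase stays between 0.689 and 1.42 FPKM.

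Cryptochrome DASH is a model of 1826 bases on the plus strand of scaffold 4, positions 228551 to 230376 of the Nanoce1779_2 annotation. The dark libraries held 1.03 and 0.762 FPKM, the blue libraries 113 and 145 FPKM, and the red libraries 0.515 and 0.536 FPKM. Every blue library lay over 100 FPKM and every other library close to or below 1 FPKM, with no value in between. The group means were 0.895 ± 0.188 FPKM in dark, 129 ± 22.4 FPKM in blue and 0.525 ± 0.0151 FPKM in red (SD, n = 2). In dark libraries 13.2% and 14.9% of all 10635 models with values were lower than cryptochrome DASH, and in blue libraries 87.7% and 90.1% were.

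In blue against dark the log2 change of cryptochrome DASH was 6.09 (SE 0.14, 95% interval 5.77 to 6.41, adjusted p = 3.26e-09 by limma). The added 1 FPKM shrinks the change of a gene this low in darkness, and the plain ratio of mean FPKM was 144. Of the 9087 models tested it had the 11th highest change, and in blue against red, where the log2 change was 6.40 (SE 0.14, adjusted p = 8.10e-09), the 6th highest. Both blue libraries stood far above both red libraries, so the pulses differed for this gene by much more than replicates did.

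In the authors' deposited table, the log2 change of cryptochrome DASH after blue light was 7.17 and did not pass, with a p of 0.188 and a q of 0.276. That 7.17 equals the log2 ratio of the deposited mean FPKM, so its size is not a separate measurement. Both blue libraries lay far above both dark libraries, and the limma fit and the authors' test disagree on the significance of the rise. The model shares 144 bases at its end with the next model on the same strand (578251, a hypothetical protein), and the table places both in 1 locus. Fragments in that stretch could be assigned to either model. Model 578251 stood at 72.8 and 78.3 FPKM in dark, 70.3 and 87.3 FPKM in blue, and 48.0 and 50.1 FPKM in red libraries. It was therefore already high in darkness, when cryptochrome DASH was near its lowest, and its blue and dark libraries overlapped (log2 change 0.05, adjusted p = 0.677 by limma). The sign of that small change turned to −0.21 with median centring and to −0.10 without blue replicate 2, and with TPM it was called at 0.30. In the same table, 15 of the 25 tested models with a log2 change of at least 6 in size after blue light did not reach a q under 0.05. Of those 15, 14 overlapped another model, against 3 of the 10 that did reach it and 37.8% of all tested models. Cryptochrome DASH is itself counted among the 15 and among the 14. That size limit was chosen after the values were seen, and the part of the overlap in the q-values was not tested.

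In red against dark the log2 change of cryptochrome DASH was −0.31 (SE 0.14, 95% interval −0.63 to 0.01, adjusted p = 0.0858 by limma). The red libraries were both below both dark libraries, at levels where few fragments had been counted. From the genomic span and the steps in the table, the values corresponded to roughly 23 and 19 fragments in dark and 20 and 16 fragments in red libraries, against roughly 4290 and 3948 in blue libraries. These are approximations, since spans can include introns. The call depended on the setting: it passed with quantile normalization (−0.36, adjusted p = 0.0392), with median centring (−0.47, adjusted p = 0.0152) and with a pseudocount of 0.1 (−0.66, adjusted p = 0.0133), and it did not pass with TPM (−0.21, adjusted p = 0.24) or a pseudocount of 5 (−0.09, adjusted p = 0.478). The upper end of the interval after red light, 0.01, lies far below the lower end after blue light, 5.77.

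The photolyase/cryptochrome, annotated with the FAD-binding domain of photolyases and with DNA repair as its process, spans 2510 bases on the minus strand of scaffold 1, positions 343524 to 346033, and overlaps no other model. It had the highest level of the family in darkness. Its values were 14.3 and 14.8 FPKM in dark, 52.0 and 64.4 FPKM in blue, and 24.4 and 28.6 FPKM in red libraries. The groups did not overlap, and red lay between dark and blue. The share of all models whose groups do not overlap was not counted. For scale, 76.1% of tested models were called in blue against dark, 63.3% in red against dark and 50.7% in blue against red. Their means were 14.6 ± 0.32 FPKM, 58.2 ± 8.80 FPKM and 26.5 ± 2.93 FPKM (SD, n = 2).

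After blue light the photolyase/cryptochrome rose by 1.92 on the log2 scale (SE 0.12, 95% interval 1.65 to 2.19, adjusted p = 7.78e-07 by limma), more than 95.6% of tested models. After red light it rose by 0.82 (SE 0.12, 95% interval 0.54 to 1.09, adjusted p = 0.000335). The direct comparison of blue against red gave 1.10 (SE 0.12, adjusted p = 7.67e-05), so the response to blue light was the larger one. In the authors' deposited table its log2 changes were 1.998 after blue light and 0.862 after red light, both with a q of 0.000177.

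The photolyase, whose description names the FAD-binding domain of DNA photolyase, spans 1773 bases on the plus strand of scaffold 14, positions 492572 to 494344, and overlaps no other model. The dark libraries held 9.18 and 8.69 FPKM, the blue libraries 20.4 and 23.0 FPKM, and the red libraries 15.0 and 14.9 FPKM. Here too the 3 groups were apart from each other, in the order dark, red, blue. Again the share of all models so separated was not counted. The means were 8.93 ± 0.35 FPKM, 21.7 ± 1.83 FPKM and 14.9 ± 0.0716 FPKM for dark, blue and red (SD, n = 2).

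The photolyase rose by 1.19 after blue light (log2 change, SE 0.10, 95% interval 0.97 to 1.42, adjusted p = 4.59e-06 by limma), which is more than 87.8% of tested models. Its rise after red light was 0.68 (SE 0.10, 95% interval 0.46 to 0.91, adjusted p = 0.000319), and blue exceeded red by 0.51 (SE 0.10, adjusted p = 0.00249). The authors' deposited table gave log2 changes of 1.28 after blue light, with a q of 0.000177, and 0.741 after red light, with a q of 0.000494. In that source, the changes of this gene and of the photolyase/cryptochrome passed for both pulses. Among the 9087 tested models, 5392 passed there for blue light and 4158 for red light. The deposited log2 changes of both genes equal the log2 ratios of their mean FPKM, so their sizes are not separate measurements.

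The order of the members by level changed with the light. In darkness and after red light it was photolyase/cryptochrome, photolyase and cryptochrome DASH, and no library of one member overlapped those of the next. After blue light cryptochrome DASH came first, followed by the photolyase/cryptochrome and the photolyase, again without overlap. FPKM is per length, so these levels can be set against each other. The order of the changes after blue light was cryptochrome DASH, photolyase/cryptochrome and photolyase, with 95% intervals that did not overlap. After red light the intervals of the photolyase/cryptochrome (0.54 to 1.09) and the photolyase (0.46 to 0.91) overlapped, and the interval of cryptochrome DASH lay below both.

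**Figure D2:**
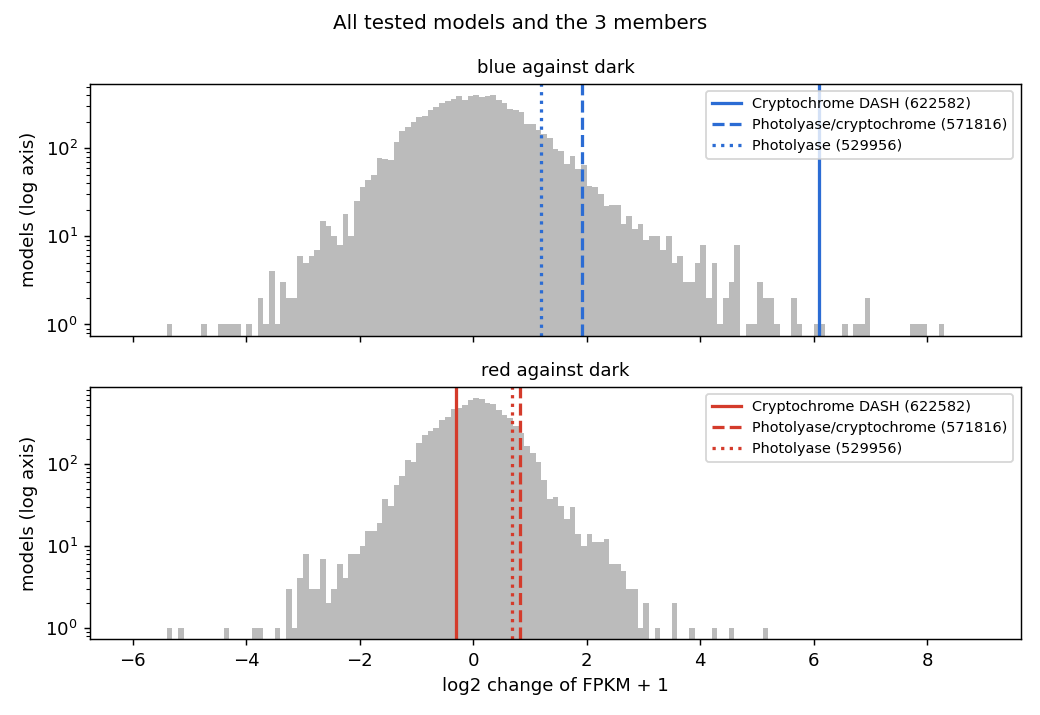
Histograms (log axis) of the log2 change of FPKM + 1 over 9087 tested models in blue against dark and red against dark, with vertical lines at the 3 members. Cryptochrome DASH stands at 6.09 in the far right tail after blue light and at −0.31 near the centre after red light, whereas the photolyase/cryptochrome and the photolyase lie to the right of the centre in both.

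The direction of these changes did not depend on the scaling of the libraries. The sum of all FPKM differed between libraries, from 588092 to 767747, while TPM has 1 fixed sum, so TPM raises the pulsed libraries relative to dark. With TPM the means of the photolyase/cryptochrome were 19.0 in dark, 90.2 in blue and 43.9 in red, those of the photolyase 11.6, 33.7 and 24.8, and those of cryptochrome DASH 1.17, 199.8 and 0.873. The calls of the photolyase/cryptochrome and the photolyase in all 3 comparisons, and of cryptochrome DASH in both comparisons with blue, held in each of 16 other settings of the fit.

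**Figure D3:**
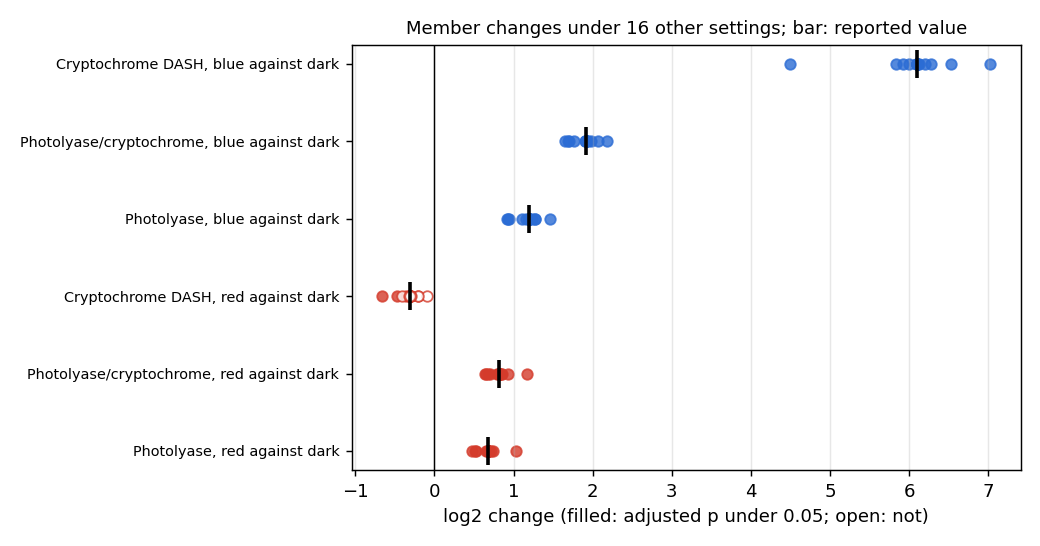
Log2 change of each member in blue against dark and red against dark under 16 other settings of the fit; filled points passed an adjusted p of 0.05, open points did not, and the vertical bar is the reported value. Blue changes stay above 0.9 for every member, and open points occur for cryptochrome DASH after red light, between −0.41 and −0.09.

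The type II photolyase (660086; scaffold 4, positions 993015 to 995345, minus strand) belongs to the class of photolyases that plants and animals use for repair of cyclobutane dimers. It held 1.42 and 1.07 FPKM in dark, 0.788 and 0.689 FPKM in blue, and 1.24 and 0.789 FPKM in red libraries. The blue libraries were lowest, and red and dark overlapped. Its mean of 0.999 FPKM over the 6 libraries missed the limit of 1 FPKM, so it was not tested with the other models. Without that limit its log2 change after blue light was −0.36 (SE 0.14, adjusted p = 0.0588 by limma) and after red light −0.16 (adjusted p = 0.37). With TPM the changes were −0.28 (adjusted p = 0.246) and 0.03 (adjusted p = 0.913). The authors' deposited table gave −0.753 with a q of 0.0458 for blue light and −0.294 with a q of 0.434 for red light. The 4 models of the family thus held 3 that rose after blue light and 1 whose lower values passed in the authors' table alone.

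Aureochromes are the other blue light receptor family of these algae and join a bZIP DNA-binding domain to a flavin-binding LOV domain. Aureochrome 4 (622551) held 4.81 and 5.13 FPKM in dark, 1298 and 1669 FPKM in blue, and 5.80 and 8.03 FPKM in red libraries. Like cryptochrome DASH it was high in both blue libraries and low in the others. Its log2 changes were 7.95 in blue against dark and 7.55 in blue against red (SE 0.15 for each; adjusted p = 1.49e-09 and 5.36e-09 by limma). Aureochrome 1 (550823) went the other way, with 811 and 763 FPKM in dark, 269.7 and 264 FPKM in blue and 407 and 436 FPKM in red libraries. Aureochrome 3 (582424) also fell after blue light, with a log2 change of −0.79 (SE 0.09, adjusted p = 3.46e-05).

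**Figure D4:**
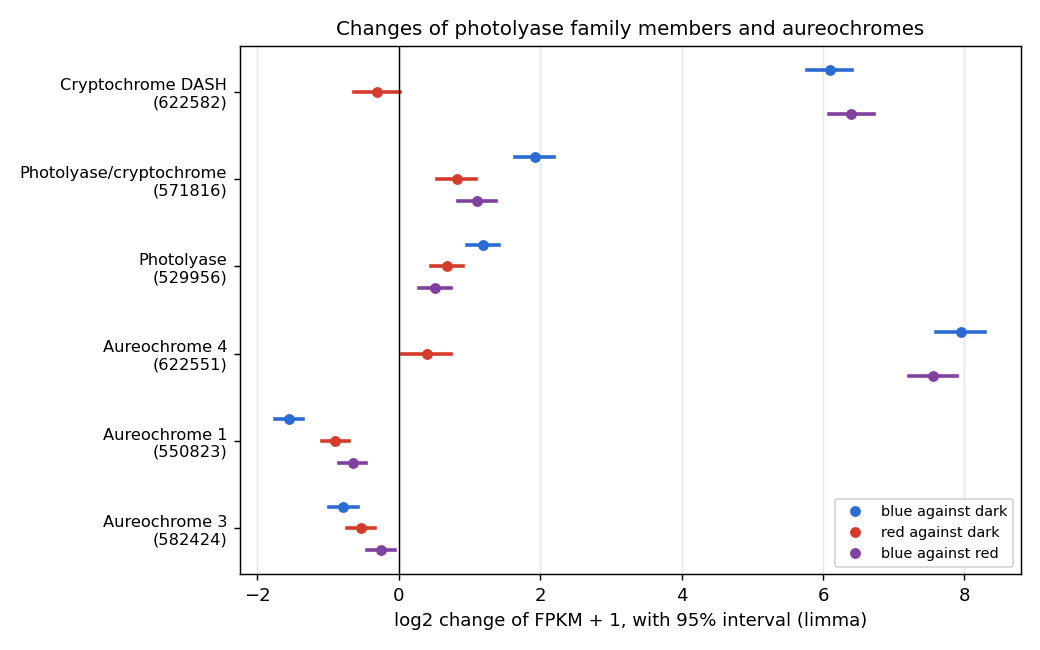
Log2 change of FPKM + 1 with its 95% interval (limma) in the 3 comparisons between groups, for the 3 members and 3 aureochromes. Cryptochrome DASH and aureochrome 4 lie above 5.7 in both comparisons with blue, the photolyase/cryptochrome and the photolyase lie above 0 in all 3 comparisons, and aureochromes 1 and 3 lie below 0 (with quantile normalization aureochrome 3 turned to 0.12 after red light).

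Besides the 3 aureochromes, the list of flavin-type and other photoreceptors held 4 models. Of its 7 models, all tested, 3 rose and 4 fell after blue light, and 3 rose and 2 fell after red light (median log2 change −0.58 and −0.15, against 0.05 and 0.04 over all tested models). The share called was 100% and 71.4%, against 76.1% and 63.3% of all tested models, a difference that was not tested in so short a list. The other risers were models matched through the words PAS/PAC in the name of a potassium channel group and are not known photoreceptors: 585970, with a cyclic nucleotide-binding domain, rose from 3.77 to 32.5 FPKM after blue and to 15.3 FPKM after red light, and 526942, an ankyrin repeat protein, from 3.87 to 44.2 and 21.5 FPKM (means of 2 libraries).

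The described models whose profile over the 6 libraries was most like that of a member were found by the Euclidean distance between log2(FPKM + 1) values relative to the dark mean. For cryptochrome DASH the nearest was a mitochondrial carrier (588372, distance 0.57), with 0.841 and 0.557 FPKM in dark, 76.9 and 104 FPKM in blue, and 0.553 and 0.563 FPKM in red libraries. Like cryptochrome DASH it was close to or below 1 FPKM without blue light and high in both blue libraries. The next were a Kua-ubiquitin conjugating enzyme hybrid (577358, distance 0.92), a concanavalin A-like lectin/glucanase domain protein (184193, 1.57), delta-6 desaturase (606752, 1.83), an enzyme of polyunsaturated fatty acid synthesis, and a beta-lactamase-like protein (588841, 2.08). All but the carrier overlap another model.

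For the photolyase/cryptochrome the nearest described models were a Ycf23 family protein (534572, distance 0.15), a JMJD6 protein (580348, 0.16), a sulfate transporter family protein (599174, 0.18), a histidine phosphatase family protein (531739, 0.20) and a major facilitator superfamily protein (667678, 0.20). The Ycf23 model had a mean of 131 FPKM in dark, 492 FPKM in blue and 248 FPKM in red, in the same order of groups at a higher level. For the photolyase they were a Sec63 domain protein (548894, distance 0.11), an alkyl sulfatase (535734, 0.16), the splicing factor U2AF 65 kDa subunit-like protein (546448, 0.16), an alpha/beta hydrolase (593452, 0.17) and a Rab-GTPase-TBC domain protein (574314, 0.17). None of the models nearest to one member was among those nearest to another. The blue changes of the members lay farther apart than these distances, so this followed from the members' own values. Models 599174, 667678, 548894 and 535734 overlap another model.

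The nearest neighbours of the members on their scaffolds varied in their changes. Next to cryptochrome DASH, the model 463 bases before it on the opposite strand (578247) had means between 0.45 and 0.653 FPKM in the 3 groups and was too low to test. The model after the overlapping one (628070) rose more after red than after blue light, from 11.7 to 40.5 and 18.6 FPKM. Beside the photolyase/cryptochrome lay a large subunit GTPase (548976), a ribosome assembly factor in yeast, at a mean of 0.386 FPKM in dark, 1.51 FPKM in blue and 0.542 FPKM in red, also too low to test. On its other side a hypothetical protein (548980) fell from 124 to 52.1 FPKM after blue light (log2 change −1.24, SE 0.08, adjusted p = 1.22e-06 by limma). Beside the photolyase, neither a DUF501 protein (593713) nor a hypothetical protein (529825) was called in any comparison.

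All models within 10 kb were then counted, the nearest included, and the farther ones were named after their values had been seen. Around cryptochrome DASH, 5 of 10 tested models were called higher and 2 lower after blue light, and 2 higher and 3 lower after red light. Around the photolyase/cryptochrome 1 of 7 was higher and 3 lower after blue light, and 2 higher and 3 lower after red light. Around the photolyase 4 of 10 were higher and 1 lower after blue light, and 4 were higher after red light, where the other 6 were not called. Over all tested models 39.9% were called higher and 36.2% lower after blue light, and 33.7% and 29.5% after red light. Whether these neighbourhoods differ from those shares was not tested. Upstream of cryptochrome DASH, the models 578242 and 628067 on the opposite strand went from means of 2.12 and 1.75 FPKM in dark to 16.5 and 11.6 FPKM in blue, and stood at 1.61 and 1.27 FPKM in red. Their log2 changes were 2.48 and 2.19 after blue light (SE 0.12 and 0.14; adjusted p = 1.91e-07 and 8.63e-07 by limma) and −0.26 and −0.28 after red light (adjusted p = 0.0947 and 0.108). Like cryptochrome DASH they were called after blue light and not after red light, a pattern whose share over all models was not counted. Upstream of the photolyase, a phytoene desaturase (593703), which acts on phytoene in the making of carotenoids, went from a mean of 40.1 to 352 FPKM after blue light and 68.4 FPKM after red light. The expressed proteins 529834 and 593709, between it and the photolyase, rose by 3.81 and 3.25 on the log2 scale after blue light and by 2.36 and 2.12 after red light. In dark replicates 1 and 2 the model 529834 held 3.98 and 11.6 FPKM, a wide spread for a pair. A further model near the photolyase (556944) rose by 0.79 after blue and 0.71 after red light. Among the fallers, 563546 before cryptochrome DASH had log2 changes of −1.02 and −1.03 after blue and red light, 578262 after it −0.83 and −0.48, and 571806 near the photolyase/cryptochrome −1.20 and −0.81.

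**Figure D5:**
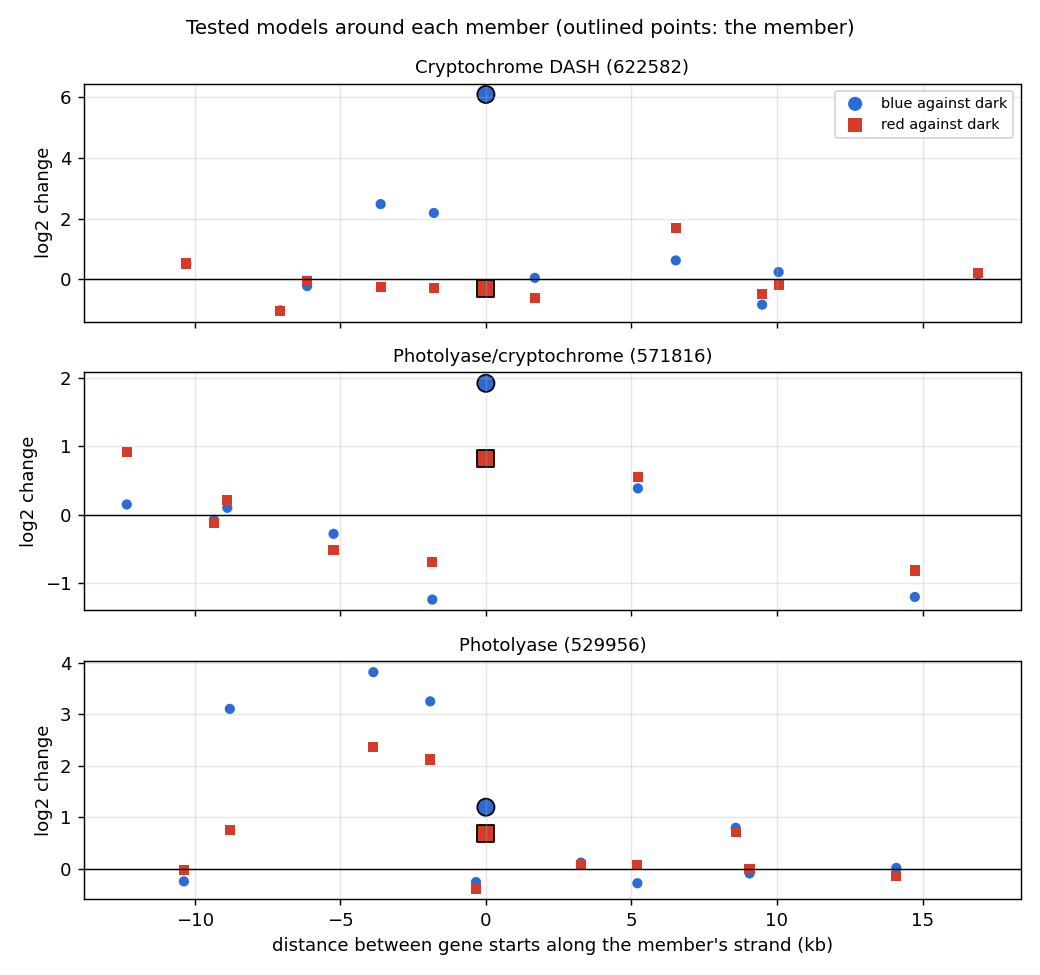
Log2 change of tested models within 10 kb of each member, against the distance in kb between gene starts along the member's strand; circles are blue against dark, squares red against dark, and the outlined points at 0 are the member. A pair of models before cryptochrome DASH lies above 2 after blue light, and 3 models before the photolyase lie above 3.

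FAD, the catalytic cofactor of the whole family, is made from riboflavin. Of 11 models of riboflavin and FAD synthesis, all tested, 4 rose and 4 fell after blue light, and 2 rose and 3 fell after red light (median log2 change 0.13 and 0.02, against 0.05 and 0.04 over all tested models). The share called was 72.7% and 45.5%, against 76.1% and 63.3% of all tested models. The 3,4-dihydroxy-2-butanone 4-phosphate synthase model (533682), which makes a precursor of the riboflavin ring, rose from 68.9 to 190.1 FPKM after blue and to 132 FPKM after red light (group means here and below). Riboflavin kinase (547517), which makes FMN, held 50.3 and 49.6 FPKM in dark, 21.8 and 19.2 FPKM in blue, and 48.9 and 50.1 FPKM in red libraries. It fell after blue light (log2 change −1.25, SE 0.09, adjusted p = 1.66e-06 by limma), while red and dark overlapped (adjusted p = 0.911). A molybdopterin-binding domain protein (595530), matched through the words FAD synthetase in its group name, rose from 7.11 to 14.9 and 14.2 FPKM. With TPM 6 of the 11 rose and 3 fell after blue light, and 7 rose and 2 fell after red light.

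A reduced folate serves many photolyases and cryptochromes as an antenna that passes light energy to FAD. Matching by words for folate synthesis, transport and one-carbon folate gave 26 models, of which 22 were tested. Of these 12 rose and 4 fell after blue light and 11 rose and 2 fell after red light (median log2 change 0.28 and 0.32, against 0.05 and 0.04). The risers after blue light include a folate-sensitive fragile site protein, matched through the word folate in its name. The share called, 72.7% and 59.1%, was close to the 76.1% and 63.3% of all tested models. A methylenetetrahydrofolate dehydrogenase (594506), an enzyme that interconverts folates, rose from 3.42 to 15.7 FPKM after blue light and to 8.38 FPKM after red light. Formate-tetrahydrofolate ligase (598318) rose more after red light, from 41.2 to 126 FPKM, than after blue light, to 52.0 FPKM (blue against red −1.26, SE 0.11, adjusted p = 2.09e-05 by limma). A folate-biopterin transporter family model (34886) fell from 44.7 to 7.51 FPKM after blue light and stood at 45.6 FPKM after red light. The balance followed the scaling: with median centring 7 rose and 6 fell after blue light, and with TPM 16 rose and 2 fell.

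Nucleotide excision repair removes the same ultraviolet damage as photolyases but needs no light. Of 29 models of that list 26 were tested, of which 13 rose and 8 fell after blue light, and 7 rose and 8 fell after red light (median log2 change 0.13 in both, against 0.05 and 0.04). The share called was 80.8% and 57.7%, beside 76.1% and 63.3% of all tested models. The xeroderma pigmentosum group D protein (555064), a helicase of the repair and transcription factor TFIIH, held 2.79 and 2.52 FPKM in dark, 11.9 and 10.9 FPKM in blue, and 4.60 and 4.61 FPKM in red libraries. Its order of groups, dark, red and blue without overlap, is that of the photolyase/cryptochrome and the photolyase. How common that order is over all models was not counted. An XPC-binding domain protein of the RAD23 group (592084, overlapping another model), which in yeast takes part in damage recognition, fell from 82.4 to 40.9 FPKM after blue light and to 42.5 FPKM after red light. With median centring 8 members rose and 12 fell after blue light, and with TPM 16 rose and 2 fell after red light.

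The list of other DNA repair held 68 models, of which 60 were tested. After blue light 16 rose and 25 fell, and after red light 16 rose and 18 fell (median log2 change −0.13 and 0.01, against 0.05 and 0.04). The share called, 68.3% and 56.7%, was below the 76.1% and 63.3% of all tested models, a difference that was not tested. The model with the smallest p after blue light, a MutS homologue (631984) of the mismatch repair protein family, rose from 0.846 to 17.6 FPKM and stood at 2.62 FPKM after red light. A model annotated as a DNA polymerase of the UmuC type (135188), a class that copies past damage, fell from 62.9 to 21.4 and 25.2 FPKM. With TPM 25 of 61 rose and 20 fell after blue light, and 31 rose and 9 fell after red light, so the balance of this list also depended on the scaling.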

How the data were processed

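The submitters' processing notes name TopHat, FastQC, Cuffdiff, Cuffnorm and Cufflinks, giving no version or role. Libraries were made with a stranded messenger RNA kit, per the labels' protocols, and whether the counting used strand was not stated. The deposited table gives FPKM and TPM per library, per the file headers, and also the authors' log2 fold changes, p-values and q-values of each pulse against dark. Columns were assigned by the codes in the sample titles.

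Log2(FPKM + 1) of 9087 of 10635 models (mean of at least 1 FPKM) was fitted with limma 3.58.1 in R 4.3.3 over all 6 libraries (3 groups, 3 residual degrees of freedom, variance trend, two-sided), with Benjamini-Hochberg adjustment over all tested models. Tested on simulated data (9087 models, blue against dark), the fit recovered 66% of genes changed by 0.5 log2 and 100% of those changed by 1, by 2 or by 6, with 11 false calls among 194. The simulation used normal noise with the fit's own variances, no scaling difference between libraries, and 50 changed models per size. In the data 76.1% were called in blue against dark, so those false calls give no error rate for the real calls. Fragments were approximated from 569 of 1121 low models whose values were whole within 0.1 fragments in all 6 libraries. Total depth was not derived, so no count test was run.

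Members, word lists and tests were chosen with earlier results of these data known. Named genes were the members, other models of the family, aureochromes, overlapping and nearest models, the 5 described models of nearest profile, and in each list the smallest p (2 for blue, 1 for red). Of the genes this rule names, 1 in the list of other DNA repair is not reported here. Lists are described by counts and medians, with no set test. No sequence is printed, since none was used here.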

Additional observations from a re-analysis of the deposited data

How the results depend on the processing

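Each member was refitted in 16 other settings (TPM, other scalings, pseudocounts and filters, no variance trend, the compared groups alone, the replicate block, and leaving out each library). Leaving out a library leaves 1 in its group, which is then assumed to vary like the others. After blue light the log2 change ranged from 4.50 to 7.02 for cryptochrome DASH, from 1.65 to 2.19 for the photolyase/cryptochrome and from 0.91 to 1.46 for the photolyase, and without 1 library from 5.92 to 6.27, from 1.77 to 2.07 and from 1.11 to 1.27. After red light, cryptochrome DASH ranged from −0.41 to −0.21 without 1 library and did not pass there. It passed with quantile normalization (−0.36), median centring (−0.47) and a pseudocount of 0.1 (−0.66), and the cause was not tested. In the authors' deposited table its blue change of 7.17 did not pass (q = 0.276).

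The number of models called was 6918 (6055 to 6835 without 1 library) for blue and 5750 (4621 to 6120) for red, each against dark, and 4606 (3412 to 4739) for blue against red. After red light, 3 models of the photoreceptor list were called with quantile normalization, with neither aureochrome 3 nor aureochrome 4 among them, and 9 of the riboflavin and FAD list with TPM, each against 5. For nucleotide excision repair after red light, 15 were called, from 9 (without dark replicate 1) to 17 without 1 library. Among other models, aureochrome 3 after red light turned from −0.53 to 0.12 with quantile normalization, and 578251 after blue light from 0.05 to −0.21 with median centring and, without 1 library, to between −0.10 (without blue replicate 2) and 0.21. The small red change of aureochrome 4, 0.39 (adjusted p = 0.0475), lost its call in 8 of the 16 settings.

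Replicate numbers are shared between groups, but nothing says that they mark a shared culture, and the codes in the titles differ from them: replicates 1 and 2 are coded 1 and 3 in dark and blue, and 2 and 3 in red. The block and the correlations use the replicate numbers. The replicate differences correlated across models at 0.09 (dark and blue), −0.08 (dark and red) and 0.34 (blue and red). Each group holds both replicate numbers, so the block cannot move the changes of the members. These stayed at 6.09, 1.92 and 1.19 after blue light. Only their SE and p-values could move, and no call of a member changed.

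Depth limits the values near 1 FPKM, which rest on roughly 16 to 61 fragments: cryptochrome DASH without blue light and the type II photolyase.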

Other observations

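Cryptochrome DASH was 1 of 22 tested models with a log2 change of at least 5 after blue light, and 1 of 8 of these whose change after red light was within 0.5 of 0. The 22 had a median log2 change of 0.88 after red light. At a blue change of at least 6 there were 11 models, of which 6 had a red change within 0.5 of 0. These limits were set after the values were seen. Among the 22, nitrate reductase (590448), which opens nitrate assimilation, stood at 0.807 and 0.661 FPKM in dark, close to the level of cryptochrome DASH, and at 63.8 and 64.3 FPKM in blue libraries. It differed after red light, with 6.78 and 8.64 FPKM (log2 change 2.32, SE 0.13, adjusted p = 1.22e-06 by limma). A hypothetical protein (55556) is among the 22 by 1 blue library alone, at 0 and 1560 FPKM in blue replicates 1 and 2. Its red replicates held 0 and 1182 FPKM, both dark libraries were at 0, and it did not pass.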
